A study of Mus musculus with 6 samples.

Results

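The 5 genes described here are the transcription factor Mlx, its sugar-sensing partners Mlxip (MondoA) and Mlxipl (ChREBP), and their known targets Txnip and Arrdc4. They were taken by gene symbol from the 14526 genes of the deposited table, and all 5 were present and passed the filter on low values. RNA levels came from sequencing of NMuMG, a mouse line of normal mammary gland epithelium whose cells turn mesenchymal under TGF-beta. All 6 libraries came from cells at day 4 of TGF-beta, and the siRNA is the only other treatment in the labels. 3 libraries had received a non-targeting siRNA (siNTC) and 3 an siRNA against Mnt (siMnt), with siRNA and TGF-beta given together and renewed on day 2. No library without TGF-beta was analysed here, and the labels give neither the glucose of the medium nor the sequence or number of the siRNAs.

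Mlx is a basic helix-loop-helix leucine zipper protein that binds DNA only as a dimer. With MondoA or ChREBP it enters the nucleus when glucose 6-phosphate is plentiful and activates genes that carry a carbohydrate response element, a pair of E-box-like sequences. Txnip and Arrdc4 are the best known of these genes, and both encode alpha-arrestins that lower glucose uptake. Mnt, a repressor best known as a partner of Max, can also pair with Mlx.

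Txnip and Arrdc4 were higher in siMnt than in siNTC within every replicate number. So were Mlx and Mlxip, and this held for 28.4% of all tested genes. Txnip was 3.60-, 2.30- and 2.41-fold higher within numbers 1, 2 and 3, and Arrdc4 was 1.97-, 1.50- and 1.71-fold higher. With the replicate number as a block both rose (limma adjusted p = 0.00268 and 0.0068). Without the block neither passed the threshold of 0.05 (adjusted p = 0.169 and 0.0854). Of all tested genes 9.33% were called higher with the block and 2.56% without it. Mlx was 1.32 times the control mean and Mlxip 1.23 times, and neither passed in either fit. Mlxipl was close to the lower end of the table, with 13 to 39 reads per library.

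The promoters of Txnip, Arrdc4 and Mlx are shown because these are the members whose siMnt values lay highest relative to the controls, and because the sugar sensors bind E-boxes. Each run is 300 bases, from 250 before to 50 after the transcription start, taken from RefSeq on build GRCm38.p6 and written 5′ to 3′ on the strand of the gene. All 5 genes matched the RefSeq promoter table, Mlxipl with 2 starts. The authors aligned to mm9, and the deposited table holds no coordinates. Capitals mark the E-box CACGTG, the E-box-like CACGAG, and the tandem pair CNCGNGNNNNNCNCGNG, each searched on both strands. The pair overlaps the single motifs that lie within it.
Txnip promoter, chr3:96557707-96558006, plus strand: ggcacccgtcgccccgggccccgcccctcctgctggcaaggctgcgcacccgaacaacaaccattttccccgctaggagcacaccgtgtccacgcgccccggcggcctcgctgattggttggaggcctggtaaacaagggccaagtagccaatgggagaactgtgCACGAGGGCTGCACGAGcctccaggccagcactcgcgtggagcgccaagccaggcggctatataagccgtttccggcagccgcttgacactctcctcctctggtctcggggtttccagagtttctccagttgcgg
Arrdc4 promoter, chr7:68749189-68749488, minus strand: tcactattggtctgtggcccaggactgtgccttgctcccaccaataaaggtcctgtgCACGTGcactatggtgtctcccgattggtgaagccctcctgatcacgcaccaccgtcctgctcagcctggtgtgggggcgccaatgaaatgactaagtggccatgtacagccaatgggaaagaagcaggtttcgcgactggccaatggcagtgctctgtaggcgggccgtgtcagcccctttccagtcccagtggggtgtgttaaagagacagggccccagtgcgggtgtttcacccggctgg
Mlx promoter, chr11:101087040-101087339, plus strand: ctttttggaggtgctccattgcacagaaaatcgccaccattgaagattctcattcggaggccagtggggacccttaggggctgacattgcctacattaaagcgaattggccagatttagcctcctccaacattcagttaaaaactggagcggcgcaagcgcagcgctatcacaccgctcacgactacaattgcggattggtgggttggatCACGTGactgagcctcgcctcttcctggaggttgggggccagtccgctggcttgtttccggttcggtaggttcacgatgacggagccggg

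The Txnip window held 2 copies of CACGAG, at -85 to -80 and -74 to -69 from the start, with the 5-base spacing of a carbohydrate response element. Together they formed the tandem pair, which 1.39% of all 32851 promoter windows in the RefSeq table held. Of these windows 6.47% held CACGAG at least once and 0.359% at least 2 times. The Arrdc4 window held 1 E-box CACGTG, at -193 to -188, and the Mlx window held 1 at -40 to -35. Mlxipl, whose groups overlapped like those of Txnip and Mlxip, held CACGTG at -98 to -93 and CACGAG at -196 to -191 from its second start. Mnt held 1 CACGTG at -123 to -118. The windows of Mlxip and of the first Mlxipl start held 0 copies of CACGTG, of CACGAG and of the tandem pair. The E-box CACGTG was in 7.15% of all windows. CCAAT, the letters bound by NF-Y, was searched on both strands as well. It occurred 2 times in the Txnip window, 6 times in that of Arrdc4, 2 times each in those of Mlx and Mlxip, and 0 and 1 times in those of Mlxipl. At least 1 copy was in 37.4% of all windows and at least 2 copies in 11.7%. A match of letters is a description and says nothing of binding in these cells.

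**Figure D1:**
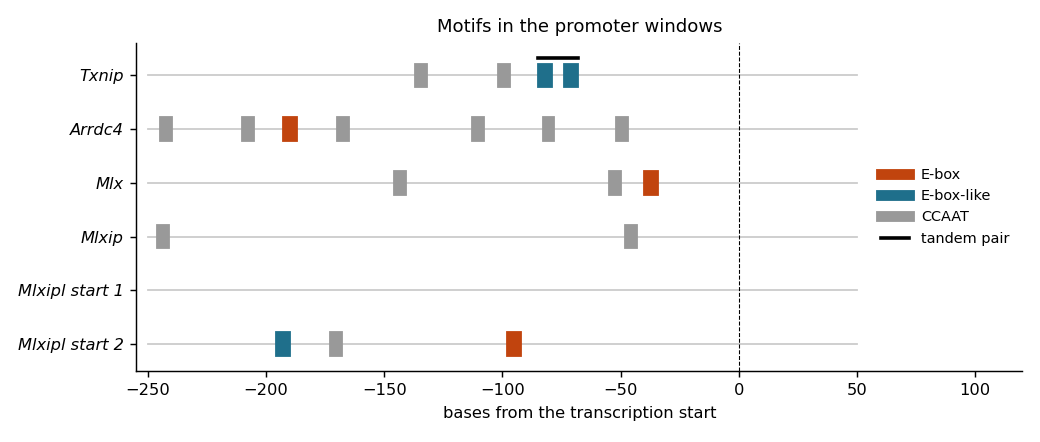
Position of each motif in the promoter windows of the 5 genes, in bases from the transcription start (dashed line), with 2 starts for Mlxipl. Only the Txnip window holds the tandem pair, from -85 to -69, and the Arrdc4 window holds 6 copies of CCAAT and 1 E-box.

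Each library held between 22323050 and 42193292 recovered reads, and the Mnt siRNA left Mnt at 50.4% of the control mean. Mnt stood at 1316, 896 and 1596 normalised read counts in siNTC replicates 1, 2 and 3 and at 613, 557 and 749 in siMnt (log2 fold change -0.96, limma adjusted p = 0.0546, or 0.00442 with the block). Nothing in the labels makes the replicates separate cultures, and if they were not, the p-values reflect technical spread alone. Along the first principal component of the tested genes (60.8% of the variance) siNTC replicate 3 lay at -0.81, apart from siNTC replicates 1 and 2 at -43.0 and -52.3, while siMnt lay between 29.4 and 35.5. Of 7 epithelial markers 6 were in the table, and they summed to between 114370 and 141620 normalised read counts in siNTC and between 126461 and 137895 in siMnt, with 0 passing by limma. The keratins Krt8 and Krt18 were between 30725 and 75987 in every library, and the cadherin Cdh1 had a log2 fold change of 0.53. The claudin Cldn4 lay between 77.5 and 485 in siNTC and between 63.7 and 100.2 in siMnt (-1.41), and the splicing factor Esrp1 between 5.97 and 26.5 in all libraries (-0.94). The macrophage markers in the table (6 of 8) summed to between 2199 and 2806 in siNTC and between 3376 and 3474 in siMnt. Csf1r passed, at between 757 and 1196 in siNTC and between 1856 and 2074 in siMnt. Itgam also passed, at a low level, between 4.43 and 8.40 in siNTC and between 17.9 and 28.1 in siMnt. Cd14 and Cd68 went the other way and did not pass (log2 fold changes -0.15 and -0.19). Lyz2 lay between 1.94 and 11.9 in all libraries and the defining marker Ptprc between 1.29 and 6.65. Markers of other cell types were near 0 or did not pass. 3 of 5 fibroblast markers summed to between 190.5 and 249 over all libraries, and 1 of 4 adipocyte ones to between 5.24 and 30.4. 2 of 4 endothelial ones summed to between 65.2 and 99.6 in siNTC and between 41.8 and 49.0 in siMnt. Of these Cdh5 had a log2 fold change of -0.97 (limma adjusted p = 0.0836 without the block). Of 4 T cell markers 0 were in the table. The part of these markers in the results was not tested. In such bulk samples fewer cells of a type and less RNA per cell cannot be told apart.

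Mlx, the shared partner, was present at a moderate level in all libraries. It stood at 582, 800 and 672 normalised read counts in siNTC replicates 1, 2 and 3 and at 966, 932 and 819 in siMnt replicates 1, 2 and 3. The lowest siMnt library lay just above the highest control, so the groups did not overlap. The means were 684 ± 110 and 905 ± 77.0 (SD, n = 3 each), and the log2 fold change on the log2(value + 1) scale was 0.41 ± 0.15 (SE), with a 95% interval from 0.06 to 0.77. The adjusted p was 0.161 by limma and 0.0732 with the block, or 0.0398 with the block after a correction for GC content and length that was chosen after seeing the data, and with 3 libraries a group the exact two-sided permutation p was 0.1, the lowest it can reach. Within replicate numbers the fold was 1.66, 1.17 and 1.22, so the first pair carried the largest difference. Mlx shares 385 exon bases with Psmc3ip on the other strand in GENCODE M21, and no source used here says whether strand was kept. Psmc3ip stood at 258 in siNTC and 243 in siMnt (adjusted p = 0.851).

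Mlxip, which encodes MondoA, the sensor best known from skeletal muscle, had the lower value of both groups in replicate number 2. It stood at 2476, 1396 and 2791 normalised read counts in siNTC and at 3043, 2241 and 2920 in siMnt. The groups overlapped, since siMnt replicate 2 lay below siNTC replicates 1 and 3. Its log2 fold change was 0.35 ± 0.26 (limma adjusted p = 0.453), or 0.35 ± 0.13 with the block (adjusted p = 0.105). Mlxip shares 267 exon bases with Gm15747 on the other strand, which was not in the table. Within numbers 1, 2 and 3 the siMnt value was 1.23, 1.61 and 1.05 times that of siNTC.

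Mlxipl, which encodes ChREBP, the sensor of liver and fat, was barely detected. It stood at 14.8, 14.4 and 25.2 normalised read counts in siNTC and at 14.1, 19.1 and 17.2 in siMnt, from 17, 13 and 39 reads and 13, 16 and 14 reads. The groups overlapped and the 3 pairs did not share a direction, with folds of 0.95, 1.33 and 0.68. The log2 fold change was -0.07 ± 0.37 (adjusted p = 0.933), and its 95% interval ran from -0.92 to 0.77, so that changes within these bounds are not excluded. Per kilobase of its longest GENCODE M21 transcript Mlxipl stood at 5.01 ± 1.69 normalised read counts in siNTC, against 304 ± 100.2 for Mlxip and 348 ± 55.8 for Mlx. On that scale 13.8% of the genes with a known length lay below Mlxipl, 62.8% below Mlxip and 67.4% below Mlx. Mlxipl shares 235 exon bases with Gm43500 on the other strand, which was not in the table.

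Txnip, the thioredoxin-interacting protein, an alpha-arrestin that also binds thioredoxin and promotes removal of glucose transporters from the cell surface, was by far the most abundant member. Per kilobase it stood at 3254 ± 2484 in siNTC and 8210 ± 5046 in siMnt, and 98.5% of the genes with a known length lay below it. In normalised read counts siNTC replicates 1, 2 and 3 held 4154, 17220 and 6220, and siMnt replicates 1, 2 and 3 held 14964.5, 39680 and 14980.5. Replicate 2 was the highest library of each group, and siNTC replicate 2 lay above siMnt replicates 1 and 3, so the groups overlapped. Within each replicate number siMnt was higher, by 1.85, 1.20 and 1.27 on the log2 scale.

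The call of Txnip differed between the fits. The log2 fold change of 1.44 had a standard error of 0.55 and a 95% interval from 0.17 to 2.71 without the block (adjusted p = 0.169), and a standard error of 0.15 and an interval from 1.10 to 1.78 with it (adjusted p = 0.00268). edgeR, run on recovered reads, gave adjusted p = 0.213 without the block and 0.0034 with it, and DESeq2 without the block gave 0.313. An exact two-sided permutation test over the 6 libraries, which ignores the numbers, gave p = 0.3. Txnip shares 606 exon bases with Gm15441 on the other strand, which stood at 19.4 in siNTC and 30.3 in siMnt, far below Txnip.

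Arrdc4, an alpha-arrestin like Txnip and likewise linked to lower glucose uptake, separated the groups. It stood at 667, 1180 and 820 normalised read counts in siNTC and at 1313, 1768 and 1401 in siMnt. The highest control was siNTC replicate 2, which lay below every siMnt library, and replicate 2 was again the highest library of each group. The means were 889 ± 263 and 1494 ± 242 (SD, n = 3 each). The log2 fold change was 0.78 ± 0.22 with a 95% interval from 0.27 to 1.28 (limma adjusted p = 0.0854), while the blocked fit gave 0.78 ± 0.12 with an interval from 0.50 to 1.05 (adjusted p = 0.0068). Without the block DESeq2 passed Arrdc4 (adjusted p = 0.0203) and edgeR did not (0.099). With the block edgeR passed it (0.00726). An exact two-sided permutation test gave p = 0.1, the smallest possible.

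**Figure D2:**
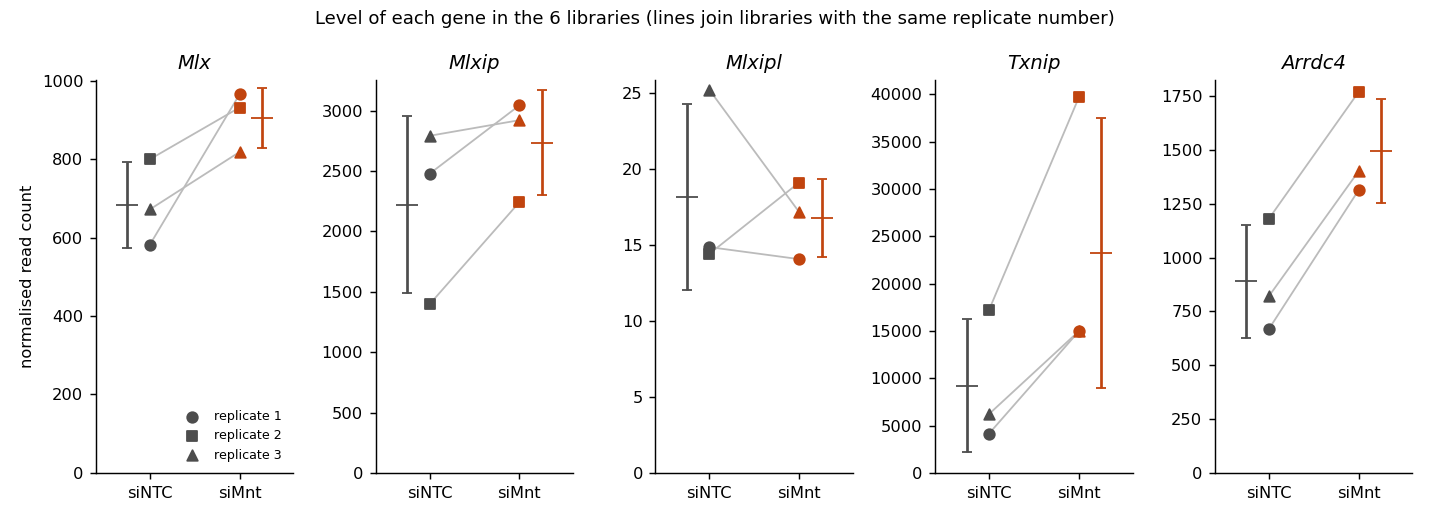
Normalised read count (y axis, from 0) of the 5 genes in each library, circles, squares and triangles for replicates 1, 2 and 3, with lines between same-numbered libraries and bars for the mean and SD of n = 3. Every line slopes upward for Mlx, Mlxip, Txnip and Arrdc4, and the squares of replicate 2 lie highest in both groups for Txnip and Arrdc4 and lowest for Mlxip.

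Over the 5 members, limma without the block called 0, where 2.56% of the 12568 tested genes were called higher, and 3 of 5 (Mlx, Txnip and Arrdc4) had an unadjusted p under 0.05 in that fit, as did 23.4% of the tested genes in either direction. With the block 2 of 5 rose, where 9.33% of the tested genes were called higher. siMnt was above siNTC within every replicate number for 4 of 5 members, which held for 28.4% of the tested genes. The groups did not overlap, with siMnt higher, for 2 of 5, against 15.6%. In the other fits that called a member, the share of genes called higher was 6.71% by DESeq2, 9.24% by edgeR with the block and 1.11% by limma without siNTC replicate 2. It was 10.8% after a correction for GC content and length with the block. edgeR without the block called 0 members and 2.29% of genes higher.

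**Figure D3:**
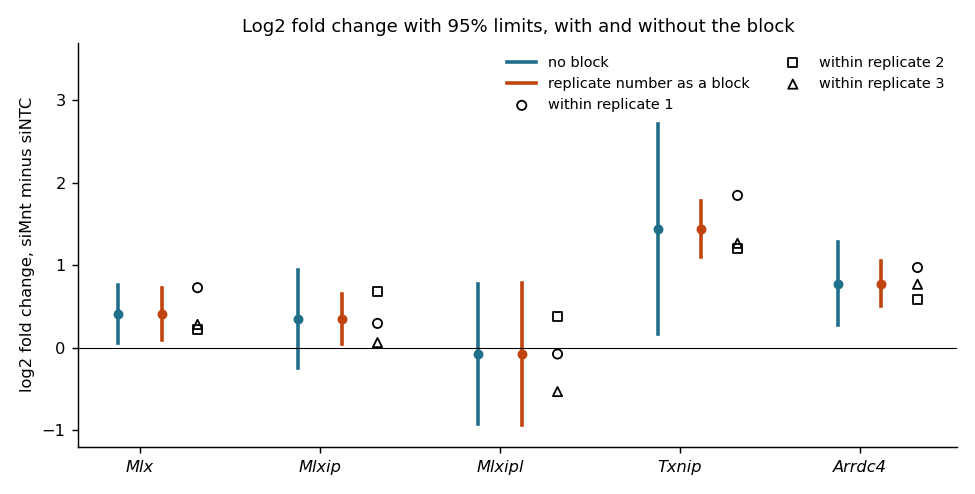
Log2 fold change (siMnt minus siNTC) of the 5 genes with 95% intervals from limma, without the block (blue) and with the replicate block (orange), beside the difference within each replicate number (open symbols). The interval of Txnip narrows from 0.17 to 2.71 to 1.10 to 1.78, and those of Mlxipl span 0 in both fits.

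The fold of Txnip was larger than that of Arrdc4 within each number, but neither exact test of the difference passed. On the log2 scale Txnip exceeded Arrdc4 by 2.64, 3.87 and 2.92 in siNTC replicates 1, 2 and 3 and by 3.51, 4.49 and 3.42 in siMnt. The groups overlapped, because siNTC replicate 2 lay above siMnt replicates 1 and 3. The group means were 3.14 ± 0.64 and 3.81 ± 0.59, a shift of 0.66 (exact two-sided permutation p = 0.3, n = 3 each, where 0.1 is the lowest possible). Within numbers 1, 2 and 3 the shift was 0.87, 0.62 and 0.50, all in one direction, with an SD of 0.19. With the libraries paired by number, the exact sign-flip permutation p was 0.25, the smallest that 3 pairs can give, so that this design could not pass the threshold.

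Replicate number 2 set the level of Txnip apart in both groups. Averaged over siNTC and siMnt, Txnip was 1.58 higher on the log2 scale in replicate 2 than in replicates 1 and 3, and 99.6% of the tested genes had a lower value of this difference. Arrdc4 was 0.53 higher (93.4% of genes lower) and Mlx 0.21 higher (73.9%), whereas Mlxip was lower, at -0.66 (3.25%). Mlxipl was at -0.06. Among genes of the pathway Fgf21, a sugar-responsive hormone gene, and Myc stood out in the same direction, at 2.23 and 1.29, and were picked for this after their values were seen. Fgf21 stood at 29.7, 176 and 24.5 in siNTC and at 85.4, 263 and 66.2 in siMnt, so that within each number it too was higher in siMnt (limma adjusted p = 0.412, or 0.0201 with the block). What the replicate numbers share is not given in the labels, and the part of any such factor was not tested.

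The genes whose log2 values followed Txnip most closely over the 6 libraries, among 10643 others with a mean of at least 100, were Fam219b, Dele1, Mavs, Maff and Pmm1, with Pearson r between 0.983 and 0.995. Those most opposed were D630003M21Rik, Efna3 and Tnpo1, with r from -0.997 to -0.996. For Arrdc4 the closest were Entpd2, Blvra, Slc25a11 and Pmm1 (r from 0.988 to 0.991) and the most opposed Isoc1, Vps33b and Clasp1 (r from -0.993 to -0.989). Pmm1, a phosphomannomutase, stood in both groups of closest genes, with log2 fold change 0.30. Txnip and Arrdc4 correlated with each other at r = 0.97, and 20 genes followed Txnip more closely than Arrdc4 did. These are descriptions over 6 libraries that share the siRNA groups and the replicate numbers.

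Of the other bHLH zipper genes of the Max and Mlx network, 1 of 9 tested rose by limma and 0 fell, where 2.56% and 1.37% of all tested genes did. Mnt, the target of the siRNA, is counted among the 9. Mxi1, a Max-binding antagonist of Myc, rose, from 2436, 1923 and 2588 normalised read counts in siNTC up to 3551, 3543 and 3507 in siMnt (log2 fold change 0.62 ± 0.13, adjusted p = 0.0478). The siMnt libraries were nearly equal to one another and all above the controls. With the block, under which 9.33% of genes rose and 6.56% fell, Mycn rose too, at 84.6 ± 15.5 and 167 ± 38.5 (adjusted p = 0.0701, or 0.0245 with the block), and Mnt and Myc fell. Myc, the activator that Mnt opposes at E-boxes, stood at 4508, 8029 and 2041 in siNTC and at 1796, 3847 and 1631 in siMnt (log2 fold change -0.90 ± 0.50, adjusted p = 0.312, or 0.0135 with the block). Its groups overlapped, though siMnt was lower in each pair. Max, the obligate partner of Myc, stood at 949 ± 109 in siNTC and 895 ± 4.41 in siMnt (log2 fold change -0.08, adjusted p = 0.757). The Max-binding repressors Mxd1, Mxd3 and Mxd4 and the large Max-binding protein Mga had log2 fold changes of -0.24, 0.16, 0.22 and 0.23 and did not pass (adjusted p from 0.433 to 0.738). Mxd1 and Mxd4 can also pair with Mlx. The other alpha-arrestins in the table, Arrdc1, Arrdc2 and Arrdc3, had log2 fold changes of 0.31, 0.37 and 0.22 and passed in neither fit (adjusted p from 0.324 to 0.543 without the block).

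Of 16 tested glucose transporters and enzymes that make or use glucose 6-phosphate 3 rose (2.56% of all tested genes did), 0 fell and 13 did not pass, with a median log2 fold change of 0.33 beside -0.01 over all tested genes. Hkdc1, a hexokinase-like enzyme, went up from 318 ± 150.4 to 726 ± 22.3 (log2 fold change 1.28 ± 0.28, limma adjusted p = 0.049). Gpi1, which interconverts glucose 6-phosphate and fructose 6-phosphate, rose from 6510 ± 781 to 9847 ± 461 (0.60 ± 0.13, adjusted p = 0.0435), and Slc2a8, an intracellular glucose transporter, rose from 283 ± 48.6 to 484 ± 45.9 (0.78 ± 0.17, adjusted p = 0.049). By edgeR without the block Hkdc1 and Slc2a8 did not pass (adjusted p = 0.0668 and 0.0517), and Gpi1 did (0.0478). With the block 6 rose, where 9.33% of all tested genes did. Pgm2, Slc2a6 and Slc37a4 were the further ones, named after their values were seen. Their limma adjusted p was 0.0501, 0.0607 and 0.133 without the block and 0.0143, 0.0163 and 0.0382 with it. Slc2a6 was low, between 9.04 and 16.6 in siNTC and between 30.6 and 58.5 in siMnt.

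Of 19 tested genes known as ChREBP targets or sugar-responsive lipid and fructose genes of liver, 0 passed by limma. Of all tested genes 3.93% passed in either direction. Of the 19 genes 17 lay above 0 (48.6% of all tested genes did) and the median was 0.41. 8 of them had an unadjusted p under 0.05, beside 23.4% of all tested genes. With the block 7 rose, beside 9.33% of all tested genes, and 0 fell. Lpin1, a phosphatidate phosphatase, stood at 504 ± 143 and 906 ± 80.6 (adjusted p = 0.0651, or 0.0105 with the block), and Tkt, transketolase, at 8111 ± 1018 and 11222 ± 526 (adjusted p = 0.078, or 0.0253). Gpd1, Me1, Adipor2 and Fgf21, picked after their values were seen, were among the further genes that passed. Fasn and Pklr were also chosen after their values were seen. Fasn, fatty acid synthase, stood at 11248 and 15021 and Pklr, the pyruvate kinase of liver, at 1426 and 1562, and both missed the threshold with the block as well (adjusted p = 0.0698 and 0.402).

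Of 7 other genes described as MondoA or ChREBP targets 1 rose, where 2.56% of all tested genes did. It was Ldha, lactate dehydrogenase, from 28652 ± 2282 to 56103 ± 1664 (log2 fold change 0.97 ± 0.14, adjusted p = 0.02). Klf10, a zinc finger repressor, stood at 2500 ± 684 and 3492 ± 642 (adjusted p = 0.205, or 0.0295 with the block). Ldha has processed pseudogenes that could share its reads, so its level is uncertain. Of 12 tested genes of the thioredoxin system 1 rose, beside 2.56% of all tested genes, and the list median was -0.03. The 1 was the reductase Txnrd3, from 992 ± 185 to 1749 ± 311 (0.82 ± 0.18, adjusted p = 0.048). Prdx4, a peroxiredoxin, stood at 806 ± 142 and 1085 ± 61.9 (adjusted p = 0.132). Of 8 Nedd4-family ligases, which bind the arrestins through PPxY motifs, 0 passed, beside 3.93% of all tested genes in either direction. The smallest adjusted p were those of Wwp1 (0.0912, or 0.0281 with the block) and Smurf2 (0.358). Of 18 regulators of the sensors, 14-3-3 proteins and AMP-activated kinase subunits among them, 0 passed, beside the same 3.93%. Prkab1, a kinase subunit, stood at 1308 ± 239 and 1975 ± 31.8 (adjusted p = 0.0586, or 0.015 with the block), and the 14-3-3 protein Ywhag at 11065 ± 1191 and 8216 ± 892 (0.112, or 0.0444).

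Over the 91 distinct tested genes of these lists 6 passed without the block, all higher in siMnt, where 3.93% of all tested genes passed in either direction. With the block 24 passed, where 15.9% of all genes did, and without siNTC replicate 3 also 24, where 16.0% did. Mnt, the target of the siRNA, is among the 91 and among the 24 in both of these fits. Without siNTC replicate 2 the count was 3, where 217 of all 12568 genes passed. It was 0 without siNTC replicate 1 or any single siMnt replicate. Over all 12568 tested genes limma also called 0 when the first siNTC library or the first or second siMnt library was left out, with 2193, 1816 and 1920 genes at an unadjusted p under 0.05. Leaving out the third siMnt library it called 125. Without the block and with all libraries the count over the lists was 4 by edgeR, 15 by DESeq2, 1 by limma with no trend and 2 with the filter at a mean of 50. Over all genes tested these settings called 445, 1457 and 306 of 12568, and 322 of 11211.

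**Figure D4:**
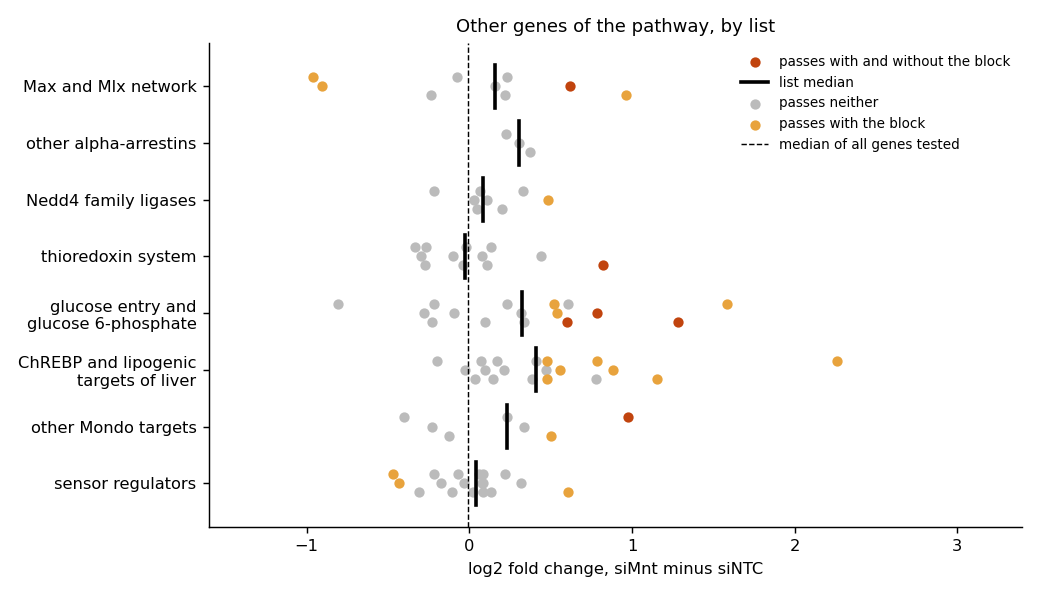
Log2 fold change (siMnt minus siNTC) of each tested gene of the 8 lists, coloured by whether it passed an adjusted p of 0.05 in limma in both fits (red), with the block (yellow) or in neither (grey), with a bar at each list's median and a dashed line at the median of all genes tested (-0.01). The glucose 6-phosphate genes and the ChREBP targets lie mostly to the right, with medians of 0.33 and 0.41.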

How the data were processed

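RNA sequencing gave 6 libraries in 2 groups of 3, grouped by their titles. The authors deposited normalised values, a signal that is never negative, which from the values themselves are read counts divided by 1 size factor per library. Dividing by the value of 1 read returned whole reads, 99.77% of the values above 0 lying within 0.05 read of a whole number. TopHat2 2.1.0, DESeq2 and build mm9 are named, per the submitters' processing notes, while no source used here names the counter, annotation or filters.

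The scale was log2(value + 1), leaving out 1958 genes whose mean was under 10, so that 12568 entered limma 3.58.1 (empirical Bayes with a trend, R 4.3.3) on all libraries, with Benjamini-Hochberg adjustment over all of them. On this scale low genes appear to change less than they do. Alternatives were edgeR 4.0.16 and DESeq2 1.42.0 on recovered reads, other pseudocounts, filters and scalings, no trend, the replicate number as a block, and each library left out. Tables were made with Python 3.11.15, pandas 2.3.3 and scipy 1.17.1. Fits were tested on simulated reads. These held no effect of the replicate number, so they do not bear on the choice between fits with and without the block. The members and lists were chosen with earlier results of these data known.

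Deviations from the group means correlated at 0.28, 0.50 and 0.35 between same-numbered libraries and between -0.38 and 0.03 between others, across genes. The numbers come from the titles, which do not say what they share. For members and list genes given with an adjusted p, the blocked value stands beside each call it changes. Named genes were the members, every gene in the table of the Max and Mlx network and the alpha-arrestins, up to 6 passing genes of each other list (the 2 with the smallest adjusted p where none or 1 passed), and the genes most like Txnip and Arrdc4. Some genes that these rules pick are not reported here.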

Additional observations from a re-analysis of the deposited data

How the results depend on the processing

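The count of members that passed was 0 without the block and 2 under the replicate block. It was 1 by DESeq2, 2 by edgeR with the block, 3 after a correction for GC content and length with the block (the edgeR block and both corrections were chosen after seeing the data), and between 0 and 1 with 1 library left out. Txnip's log2 fold change was 1.44 with the block, 1.45 in edgeR with the block and 1.49 with correction and block, all passing. That of Arrdc4 passed at 0.78 with the block, 0.76 by DESeq2, 0.79 in edgeR with the block and 0.80 with correction and block, and that of Mlx at 0.45 with correction and block. With 1 library left out, Arrdc4 lay between 0.59 and 1.001, passing only without siNTC replicate 2, and Txnip between 0.97 and 2.03, Mlx between 0.30 and 0.53 and Mlxip between 0.04 and 0.54 did not pass. Without siNTC replicate 1 or siMnt replicate 1 or 2, limma called 0 of all 12568 genes, so no member could be told apart there. It called 125 without siMnt replicate 3, 217 without siNTC replicate 2 and 2012 without siNTC replicate 3. Mlxipl lay between -0.21 and 0.18, turning positive without siMnt replicate 1 (0.04) or siNTC replicate 3 (0.18), and at -0.37 under quantile normalisation. It has few reads, and the filter at a mean of 50 leaves no value for it. Of the 91 other pathway genes, the siRNA target Mnt included, 6 passed without the block and 24 with the replicate block. Chosen after seeing the data, other settings gave 15 (DESeq2), 13 (correction), 27 (correction and block), 22 (edgeR with block), 2 (mean of at least 50), 1 (no trend) and between 4 and 7 in the rest. Over all genes tested DESeq2 called 1457 of 12568, the correction 983 of 12420, correction and block 2348 of 12420 and edgeR with block 1945 of 12568. The filter at a mean of 50 called 322 of 11211, no trend 306 of 12568, and the rest between 445 and 560. The correction left 90 list genes to test and the filter 87. With 1 library left out between 0 and 24 passed: 0 without siNTC replicate 1 or any siMnt replicate, 3 without siNTC replicate 2 and 24 without siNTC replicate 3. The Txnip to Arrdc4 difference did not pass, paired by number or not. The causes were not tested.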
